A study of Mus musculus with 8 samples.

Results

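The AP-1 transcription factor genes were described here by the histone mark H3K4me3 in lung tumor cells of KL and KLG4m/m mice. The members were 10 genes chosen by name, namely Fos, Fosb, Fosl1, Fosl2, Jun, Junb, Jund, Atf3, Batf and Batf3, and all peaks that the H3K4me3 table assigned to them were taken. This gave 20 of the 35486 listed peaks, over 9 of the 10 genes, since no peak was listed under the name Jun. Both genotypes carried Lkb1fl/fl and the same Cre-activated tumor allele, and KLG4m/m mice carried Gpx4m/m in addition, so that loss of Lkb1 was shared by both groups. Mice on the C57BL/6 background, 8 to 10 weeks old, received Ad-Cre through the nose, were left for 5 weeks, were given tamoxifen every other day for 2 weeks in both genotypes and rested for 3 weeks, so that cells were taken 10 weeks after Ad-Cre. In the Gpx4m allele, Cre switches on a tamoxifen-dependent Dre recombinase from the Gpx4 locus and Dre then deletes exons of Gpx4, so the deletion depends on both steps in each Cre-exposed cell. Tumor cells were sorted as CD45-CD31-EpCAM+, and 1000000 cells per mouse were used for an assay named CUT&Tag. As its protocol is worded, an antibody to the mark directed an MNase enzyme that cut out the bound chromatin. There were 2 libraries per genotype, KL replicates 1 and 2 and KLG4m/m replicates 3 and 4. The labels do not tie libraries to mice. The protocol speaks of 3 mice in total, whereas the paper's figure legend for these data gives 2 mice per group. The tests and SDs therefore measured only the spread between these libraries, which may not be that between separate animals. H3K27ac libraries of the same design were not analysed here.

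AP-1 is a dimer of basic leucine zipper proteins that binds short palindromic DNA sites, and MAP kinase signalling is a classical inducer of its Fos and Jun subunits. Fos proteins bind DNA only as partners of other subunits, whereas Jun proteins can pair with themselves, and ATF3, BATF and BATF3 enter the same dimers with other effects on transcription. H3K4me3 marks the start sites of active or poised genes, and its level is not a measure of transcript or protein. Because the cells were measured in bulk, a change of the mark per cell and a change in the share of cells that carry it cannot be told apart.

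The libraries held 3244495 to 3463731 reads in listed peaks, of which 0.0833% to 0.0938% lay in AP-1 peaks. Counts of the KL pair differed by a chi-square of 1.13 per degree of freedom and those of the KLG4m/m pair by 1.23, against 2.37 to 2.80 between genotypes. The deleted parts of Gpx4 and of Stk11, the gene for Lkb1, lie inside the genes, so the promoter peaks of either gene do not check the labels. The Gpx4 promoter peak was higher in KLG4m/m, with 242 and 236 reads in KL against 304 and 301 in KLG4m/m, a 1.32-fold difference with an adjusted p of 0.00854. Stk11 had a promoter peak with 284, 334, 341 and 337 reads, whose difference did not pass the test, and another with 197 and 173 reads in KL against 246 and 299 in KLG4m/m, which was 1.53-fold higher with an adjusted p of 0.0014. Among markers of the sorted cells, peaks were listed for 7 of 7 epithelial markers and for 7 of 8 alveolar type 2 markers, the one without a peak being Sftpc.

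The promoter sequences of Batf and Junb are shown because their promoter peaks were the ones that passed the test, and that of Fos because it carried the highest promoter level. Windows came from RefSeq on GRCm38.p6, which held 9 of the 10 genes. These 9 windows include Jun and lack Fosl1, unlike the 9 genes with a peak. Each line gives the 250 bases before the start site on the gene's own strand. Capitals stand for the letters TGACG, which are part of a cyclic AMP response site, or TATAAA, the core of a TATA box.
Batf, chr12:85686470-85686719, plus strand: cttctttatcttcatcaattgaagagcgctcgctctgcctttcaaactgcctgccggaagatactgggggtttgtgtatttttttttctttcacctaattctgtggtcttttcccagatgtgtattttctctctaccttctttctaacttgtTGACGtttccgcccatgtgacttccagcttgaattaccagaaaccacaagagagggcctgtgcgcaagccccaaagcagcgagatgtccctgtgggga
Junb, chr8:84978749-84978998, minus strand: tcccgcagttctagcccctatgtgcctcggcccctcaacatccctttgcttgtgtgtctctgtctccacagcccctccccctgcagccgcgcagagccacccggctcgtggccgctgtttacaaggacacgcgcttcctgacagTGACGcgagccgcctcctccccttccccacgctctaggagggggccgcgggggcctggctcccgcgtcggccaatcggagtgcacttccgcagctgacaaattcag
Fos, chr12:85473640-85473889, plus strand: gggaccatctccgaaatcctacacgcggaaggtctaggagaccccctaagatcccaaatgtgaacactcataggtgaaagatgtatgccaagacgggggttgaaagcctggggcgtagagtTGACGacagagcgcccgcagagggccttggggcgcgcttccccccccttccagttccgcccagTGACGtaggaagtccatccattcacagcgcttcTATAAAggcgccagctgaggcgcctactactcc
Neither the AP-1 site TGANTCA nor the site TGACGTCA, searched on both strands with N for any base, was found in any of the 9 windows, and 6.75% and 1.55% of all 32851 windows held them. Only exact matches counted, so the letters TGACATCA in the Jun window, which differ from TGACGTCA in 1 base, did not. TGACG, which also forms the first letters of TGACGTCA, was found in 5 of the 9 windows, those of Fos, Fosb, Junb, Atf3 and Batf, against 17.8% of all windows. These letters were added to the search after the windows had been read, so the comparison is a description and not a test. The Fos window held TGACG at bases -129 to -125 and -66 to -62 before the start, the Junb window at -106 to -102 and the Batf window at -98 to -94. TATAAA was found in the Fos window alone, at bases -33 to -28, against 12.4% of all windows. The CArG box, the site of serum response factor, was found in none of the 9, against 1.47% of all windows. Bases beyond these 250 were not searched, so a site further upstream would be missed. GC content was 46.4% for Batf, 66.4% for Junb and 58.4% for Fos, against a median of 52.4% for all windows. The Fos promoter peak reached from base -236 to +164 and thus covered most of its window, whereas the Batf peak lay at +111 to +511 and the Junb peak at -772 to -372, outside the printed bases.

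Promoter levels differed widely between members. A promoter level is given as CPM, that is counts per 1000000 reads in listed peaks after TMM scaling, over a peak of 400 bp, and each of the 9 genes had 1 peak within 1 kb of its start. Fos, the immediate early subunit that pairs with Jun, had the highest level, from 79.4 to 96.3 CPM over the 4 libraries. It was followed by Jund at 66.0 to 78.8 CPM, Batf at 56.7 to 79.9 CPM, Fosl2 at 60.5 to 71.3 CPM, Atf3 at 60.4 to 76.2 CPM, Fosb at 52.7 to 70.3 CPM and Junb at 48.1 to 66.9 CPM. Neighbours in the order from Jund to Junb overlapped, so their order was not resolved by the libraries, and Fos overlapped with Batf but not with Jund. Fosl1, at 30.8 to 38.1 CPM, and Batf3, at 19.2 to 22.4 CPM, stood below the rest and did not overlap with each other. Among the 17073 peaks within 1 kb of a start site, whose median was 41.2 CPM, mean levels ran from the 88.8th percentile for Fos to the 31.8th for Batf3.

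**Figure D1:**
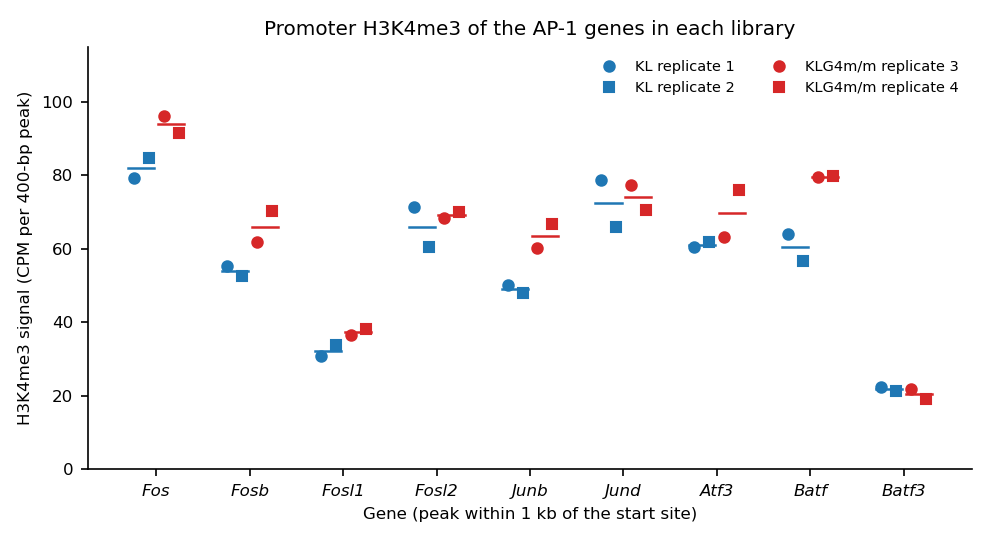
H3K4me3 in CPM per 400-bp peak (y axis) at the promoter peak of 9 AP-1 genes (x axis) in each library, with KL in blue, KLG4m/m in red and a line at the mean of each pair. Both KLG4m/m libraries lie above both KL libraries for Fos, Fosb, Fosl1, Junb, Atf3 and Batf, and the pairs overlap for Fosl2, Jund and Batf3.

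The comparison of KLG4m/m with KL asked whether the mark at these genes differs after Gpx4 loss. Of the 20 peaks, 2 were higher in KLG4m/m by edgeR's quasi-likelihood test at an adjusted p under 0.05, namely the promoter peaks of Batf and Junb, and 0 were lower. Over all 35486 peaks the same test called 3.10% higher and 5.52% lower, and within 1 kb of a start site it called 2.89% higher and 8.43% lower. At an unadjusted p under 0.05, 6 AP-1 peaks were higher and 1 was lower, where 11.2% and 13.5% of all peaks were. DESeq2 called 0 AP-1 peaks in either direction, and at least 1.5-fold was reached by 0 called peaks.

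At the 9 promoter peaks, 8 log2 fold changes were above 0 and their median was 0.20, against 50.4% above 0 and a median of 0.0024 for all peaks within 1 kb. Both KLG4m/m libraries were above both KL libraries at 6 of the 9, where 27.9% of all such peaks were, and both were below at none, where 29.1% were. At the 11 AP-1 peaks beyond 1 kb, the nearest of which lay 1868 bp from its start site, 5 were above 0 and 6 below, with a median of -0.07. Over all 20 peaks, 13 were above 0, against 51.0% of all peaks. Of the 20, 8 did not overlap and were higher, 2 did not overlap and were lower, and 10 overlapped, where 27.5% of all peaks did not overlap and were higher and 26.6% lower.

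**Figure D2:**
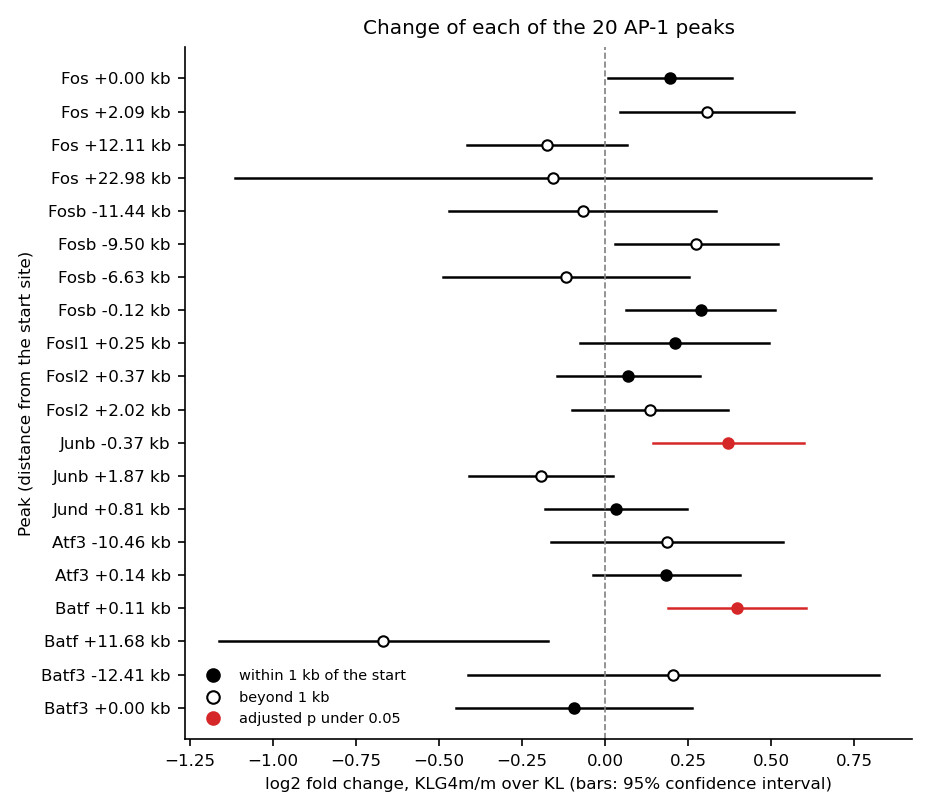
log2 fold change of KLG4m/m over KL (x axis) with its 95% confidence interval for each of the 20 AP-1 peaks (y axis, by gene and distance from the start site), filled where the peak lies within 1 kb and red where the adjusted p was under 0.05. The intervals of 2 promoter peaks, of Batf and Junb, are red, and the interval of the Batf peak at +11.68 kb lies below 0 without passing the adjusted test.

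**Figure D3:**
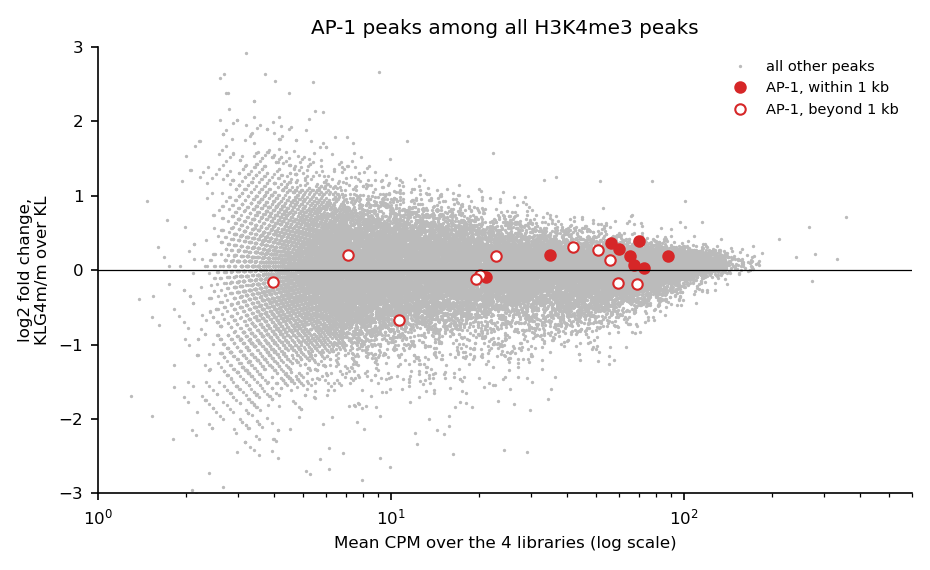
log2 fold change of KLG4m/m over KL (y axis) against mean CPM over the 4 libraries (x axis, log scale) for all listed peaks in grey and the AP-1 peaks in red, filled within 1 kb of the start. The AP-1 peaks lie within the cloud of all peaks at their level, between -0.67 and 0.40, and 21 grey peaks fall outside the axes.

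The Fos family holds the subunits that need a partner. At the Fos promoter, on chromosome 12 from 85520428 to 85520828 in the table's coordinates, 276 and 294 reads were counted in KL and 332 and 296 in KLG4m/m. Scaled to CPM these were 79.4 and 84.7 against 96.3 and 91.6, so that the groups did not overlap, yet the log2 fold change of 0.20 (95% CI 0.010 to 0.38) had an adjusted p of 0.178. The peak 2.09 kb downstream, inside the gene, had 134 and 125 reads in KL and 154 and 154 in KLG4m/m, with a log2 fold change of 0.31 and an adjusted p of 0.133. Intergenic peaks further downstream pointed the other way without passing the test. The one at 12.1 kb had 244, 195, 205 and 169 reads, a log2 fold change of -0.17 and overlapping groups, and the one at 23.0 kb held 23 and 6 reads in KL and 14 and 11 in KLG4m/m, with a log2 fold change of -0.16 and a wide 95% CI of -1.11 to 0.80.

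Fosb, a close relative of Fos that is also induced early, had 192 and 183 reads at its promoter in KL and 213 and 227 in KLG4m/m, on chromosome 7 from 19044091 to 19044491. The groups did not overlap, and the log2 fold change of 0.29 (95% CI 0.064 to 0.51) had an adjusted p of 0.0985. A peak 9.50 kb upstream, in an exon of the non-coding gene D830036C21Rik, held 174 and 146 reads in KL and 186 and 186 in KLG4m/m, with a log2 fold change of 0.27 and an adjusted p of 0.153. The remaining Fosb peaks, at 6.63 and 11.4 kb upstream, held 53 to 78 reads per library, overlapped between groups and had log2 fold changes of -0.12 and -0.07.

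Fosl1 and Fosl2 encode FRA1 and FRA2, Fos-like subunits without the strong activation domain of FOS. Fosl1 had a single peak, on chromosome 19 from 5497975 to 5498375, with 107 and 117 reads in KL against 126 and 123 in KLG4m/m. Its groups did not overlap, and the log2 fold change of 0.21 (95% CI -0.074 to 0.49) had an adjusted p of 0.365. Fosl2 overlapped at both of its peaks, with 248, 210, 236 and 226 reads at the promoter (log2 fold change 0.07, 95% CI -0.15 to 0.29) and 176, 196, 217 and 176 reads at 2.02 kb (log2 fold change 0.14).

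The Jun family supplies the partner of the Fos proteins. No peak carried the name Jun, and the nearest view of this locus was a promoter peak of Junos, the antisense neighbour that starts beside Jun, 590 bp from the Junos start. It held 361, 323, 366 and 346 reads, a log2 fold change of 0.12 (95% CI -0.064 to 0.29) with an adjusted p of 0.44, and it cannot be assigned to one of these genes. Jund, a Jun subunit present in most resting cells, overlapped between groups with 274, 229, 267 and 228 reads on chromosome 8 from 71151196 to 71151596 and had a log2 fold change of 0.03 (95% CI -0.18 to 0.25).

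Junb, which can oppose JUN at its targets, had a promoter peak that was higher in KLG4m/m and another peak that was not. The promoter peak, on chromosome 8 from 85705749 to 85706149, held 174 and 167 reads in KL and 208 and 216 in KLG4m/m. In CPM, 49.1 ± 1.38 in KL rose to 63.6 ± 4.64 in KLG4m/m (SD, n = 2 each) and the groups did not overlap. The difference was 1.29-fold (95% CI 1.10 to 1.52), with a log2 fold change of 0.37 and an adjusted p of 0.0359. It passed the test neither with DESeq2 (adjusted p = 0.506) nor without any 1 of the 4 libraries, where the adjusted p was 0.0892 without KL replicate 1, 0.18 without KL replicate 2, 0.307 without KLG4m/m replicate 3 and 0.337 without KLG4m/m replicate 4. The other Junb peak, 1.87 kb downstream of the start and past the end of the gene, held 246 and 267 reads in KL and 242 and 190 in KLG4m/m. Scaled to CPM, 70.8 and 76.9 in KL stood just above 70.2 and 58.8 in KLG4m/m, with a log2 fold change of -0.19 and an adjusted p of 0.267. Neither peak's change was shown to differ from that of the gene as a whole, with diffSpliceDGE adjusted p-values of 0.201 for the promoter peak and 0.289 for the other. The 2 peaks were not tested against each other. Their 95% CIs on the log2 scale, 0.14 to 0.60 and -0.41 to 0.025, did not overlap. None of the 20 listed peaks within 100 kb of the Junb promoter peak was called, with adjusted p-values from 0.151 and a median log2 fold change of 0.06.

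Batf, a subunit that pairs with Jun proteins and is best known from lymphocytes, where it acts with IRF4, had the smallest adjusted p of all AP-1 peaks. Its promoter peak, on chromosome 12 from 85733605 to 85734005, held 223 and 197 reads in KL and 274 and 258 in KLG4m/m. In CPM, 60.4 ± 5.24 in KL rose to 79.7 ± 0.298 in KLG4m/m (SD, n = 2 each), and the groups did not overlap. The difference was 1.32-fold (95% CI 1.14 to 1.52), with a log2 fold change of 0.40 and an adjusted p of 0.0139. It passed the test without KL replicate 1 but not without KL replicate 2 (adjusted p = 0.175), KLG4m/m replicate 3 (0.309) or KLG4m/m replicate 4 (0.337), nor with DESeq2 (0.339). Without either KLG4m/m library, 0 of the 35486 peaks passed.

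The Batf peaks pointed in opposite directions. In intron 2 of Batf, 11.7 kb from the start, on chromosome 12 from 85745172 to 85745572, a weak peak held 49 and 42 reads in KL and 30 and 25 in KLG4m/m. Both KLG4m/m libraries were below both KL libraries, and the log2 fold change of -0.67 (95% CI -1.16 to -0.17) had an adjusted p of 0.0839. Its change differed from that of the gene as a whole by -0.92 on the log2 scale, with an adjusted p of 0.0395. For the Batf promoter peak the same difference was 0.14, with an adjusted p of 0.71. The intron peak was the one called among 18 AP-1 peaks of 7 genes with more than 1 peak, where 1.29% of all 22232 such peaks were called. At an unadjusted p under 0.05 there were 4 AP-1 peaks, and 11.6% of all such peaks. It was not called without any 1 of the 4 libraries, with adjusted p-values of 0.225 without KL replicate 1, 0.212 without KL replicate 2, 0.216 without KLG4m/m replicate 3 and 0.342 without KLG4m/m replicate 4. Another peak in the same intron, assigned to the ribosomal RNA gene n-R5s64, held 211, 232, 248 and 230 reads and had a log2 fold change of 0.17 with an adjusted p of 0.32.

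Fos and Batf lie 213 kb apart on chromosome 12, with Jdp2, a Jun-binding repressor, between them. Of 15 listed peaks in and around this stretch, at -231 to 59.4 kb from the Batf start, 1 was higher and 0 were lower, the called one being the Batf promoter. The Jdp2 promoter held 188, 208, 235 and 198 reads, with a log2 fold change of 0.19 and an adjusted p of 0.299. None of the 5 other peaks within 100 kb of the Batf promoter peak was called. Their log2 fold changes ran from -0.67, the intron peak, to 0.43.

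**Figure D4:**
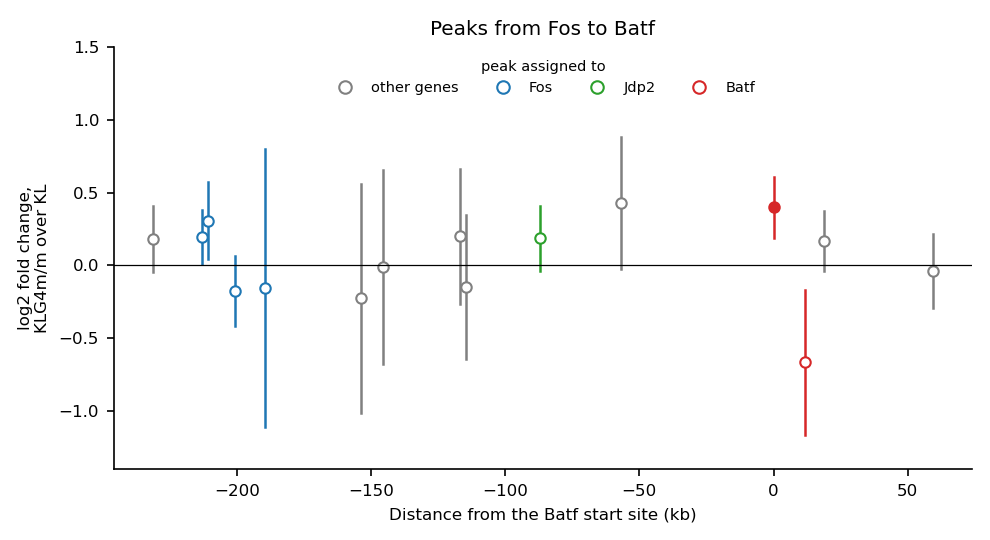
log2 fold change of KLG4m/m over KL with its 95% confidence interval (y axis) for the 15 peaks in and around the stretch from Fos to Batf by distance from the Batf start in kb (x axis), colored by the gene each was assigned to and filled where the adjusted p was under 0.05. The Batf promoter at 0.311 kb is filled, and the other Batf peak, at 11.9 kb, lies below 0.

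The other partners are Atf3, a stress-induced repressor or activator, and Batf3, which is known for its role in conventional dendritic cells. The Atf3 promoter held 210 and 215 reads in KL and 218 and 246 in KLG4m/m, on chromosome 1 from 190914987 to 190915387. In CPM the groups did not overlap, and the log2 fold change of 0.18 (95% CI -0.037 to 0.41) had an adjusted p of 0.299. A peak 10.5 kb upstream of Atf3 overlapped between groups, with 67 to 82 reads per library and a log2 fold change of 0.19. The Batf3 promoter, which overlapped between groups with 78, 74, 75 and 62 reads, had a log2 fold change of -0.09 (95% CI -0.45 to 0.26), and the peak 12.4 kb upstream of Batf3 held 21 to 30 reads per library.

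When reads were summed over all peaks of a gene, 0 of the 9 genes passed the test in either direction, where 5.38% of all 20871 genes were higher and 9.63% lower. At an unadjusted p under 0.05, Batf and Fosb were higher and 0 genes were lower, where 12.4% and 16.4% of all genes were, and DESeq2 called 0 genes. Batf had a summed log2 fold change of 0.25 with an adjusted p of 0.0591, Fosb of 0.18 with 0.0823, and Atf3 of 0.18 with 0.179. Of the 9, 8 were above 0 and Batf3 was at -0.02, and their median was 0.10, against 50.3% above 0 and a median of 0.0023 over all genes. With peaks within 1 kb only, Batf (adjusted p = 0.00308) and Junb (0.0145) passed as higher, where 4.85% of 15391 genes were higher and 10.5% lower. With the strongest peak of each gene only, where 3.47% of all genes were higher and 8.25% lower, Batf passed (0.00788) while Junb, whose strongest peak is the downstream one, had a log2 fold change of -0.20.

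The 5 genes whose summed levels were closest to those of Batf over the 4 libraries, by Euclidean distance of centred log2 CPM among 9728 genes of like level, were Gtf2h2, Cdk2, Ube2c, Tgfbr2 and A730081D07Rik. Their distances ran from 0.0096 to 0.026 and their log2 fold changes from 0.23 to 0.26, and none was called. With only 4 libraries such likeness is a description.

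Because Batf belongs to lymphocyte biology, the level of markers of other cells is given beside its result. On the same summed reads, 5.38% of all genes were called higher, 9.63% were called lower and 50.3% were above 0. B cell markers had peaks for 7 of 8 genes, with none listed for Cd79a, and all 7 were above 0, with 5 called higher, 1 of them (Bank1) with DESeq2 too, and a median log2 fold change of 0.73. Their summed level was 134 to 153 CPM in KL and 201 to 214 CPM in KLG4m/m. T cell markers were above 0 for 10 of 10 genes, with 2 called higher, Cd3d among them, and summed to 454 to 464 CPM in KL and 518 to 522 CPM in KLG4m/m. Leukocyte markers were above 0 for 7 of the 7 with a peak, Laptm5 having none, with Coro1a, Rac2 and Vav1 called higher, and summed to 636 to 641 against 738 CPM. Rac2 passed in 9 of 11 alternatives, Coro1a in 3 of 10 and Vav1 in 2 of 11. Macrophage markers summed to 303 to 310 CPM in KL and 344 to 346 CPM in KLG4m/m, with Adgre1 and Spi1 higher, Lyz2 lower and no peak for Marco. Of the 7 macrophage markers with a peak, 5 were above 0 and 2 below, with a median of 0.26. Dendritic cell markers summed to 268 to 284 CPM in KL and 279 to 281 CPM in KLG4m/m, with Ccr7 higher and no peak for Xcr1, Clec9a or Cd209a. Of the 5 dendritic cell markers with a peak, 2 were above 0 and 3 below, with a median of -0.096. The sort removed CD45-bearing cells, and a marker enters these sums only where a peak was listed, so a level of 0 could not occur. In the other direction, alveolar type 2 markers were below 0 for 7 of 7 with 5 called lower and summed to 324 to 342 against 239 to 251 CPM. Among the 7 epithelial markers Epcam and Cdh1 were called lower, yet 3 were above 0 and 4 below, with a median log2 fold change of -0.0043. Their summed level was 340 to 346 CPM in KL and 299 to 302 CPM in KLG4m/m. Endothelial markers summed to 223 to 260 CPM in KL and 219 to 243 CPM in KLG4m/m with Tek lower, and 2 were above 0 and 5 below. Fibroblast markers summed to 64.6 to 71.7 CPM in KL and 69.5 to 72.8 CPM in KLG4m/m, with Pdgfrb higher. No peak was listed for Col1a2, Dcn, Lum or Col3a1, and of the 3 other fibroblast markers 2 were above 0 and 1 below. The part of these cells in the Batf and Junb results was not tested.

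The genes around AP-1 in its pathway are given from lists of names, each with the count that passed the test on summed reads. Over all 20871 genes, 5.38% were higher, 9.63% were lower and 50.3% were above 0. Of the related bZIP factors, 13 of 14 had peaks, Atf5 having none, and 9 were above 0. Batf2, a BATF relative, was lower, with 85 and 79 reads in KL against 45 and 58 in KLG4m/m, a log2 fold change of -0.61 and an adjusted p of 0.0162. The other 12 did not pass, among them Maff at 0.15 and Jdp2 at 0.18.

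Of the upstream kinases and SRF-ETS factors, which carry signals to the Fos and Jun genes or proteins, 20 of 21 had peaks, Mapk10 having none. Of these 20, 4 were lower and 1 higher, where 9.63% and 5.38% of all genes were. Mapk8, the gene for JNK1, which phosphorylates JUN, held 138 and 175 reads in KL and 103 and 66 in KLG4m/m, a log2 fold change of -0.83 with an adjusted p of 1.41e-05. Mapk9, for JNK2, had a log2 fold change of -0.35 with an adjusted p of 0.007, and Mapk14, for p38 alpha, of -0.25 with 0.0301. Map2k6, a kinase of p38, was higher at 0.27 with an adjusted p of 0.0404, but passed in 1 of 11 alternatives and missed, among others, with total-read scaling (0.051). Mapk8 passed with DESeq2 as well, whereas Mapk9, Mapk14 and Map2k6 did not.

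Of the MAP kinase feedback inhibitors, 11 of 13 had peaks, with none for Dusp16 and Spry1, and 3 were above 0, against 50.3% of all genes. Dusp5, a phosphatase of MAP kinases, was lower, with 202 and 214 reads in KL against 147 and 88 in KLG4m/m, a log2 fold change of -0.77 and an adjusted p of 3.98e-06, and it did not pass with DESeq2. Dusp8 at -0.21, Spry2 at 0.12 and Spred2 at -0.07 did not pass.

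The other immediate early genes, which like Fos respond within minutes to growth signals, had peaks for 24 of 26 genes, with none for Ccn2 and Ppp1r15a. Of these 24, 17 were above 0 with a median of 0.04, against 50.3% above 0 and a median of 0.0023 over all genes. Egr1, a zinc finger factor induced alongside Fos, was higher, with 434 and 394 reads in KL against 495 and 453 in KLG4m/m, a log2 fold change of 0.25 and an adjusted p of 0.017. Egr4 was lower, with 24 and 27 reads in KL against 9 and 13 in KLG4m/m, a log2 fold change of -1.15 and an adjusted p of 0.0222. Klf2 at 0.17 (adjusted p = 0.0803) and Zfp36 at 0.22 (0.0869) did not pass, and neither Egr1 nor Egr4 passed with DESeq2, which gave no adjusted p for Egr4.

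Of the established AP-1 target genes, 15 of 18 had peaks, Mmp3, Mmp10 and Mmp13 having none. Of these 15, 3 were higher and 1 lower, where 5.38% and 9.63% of all genes were. Mmp9, a gelatinase, held 95 and 103 reads in KL and 174 and 131 in KLG4m/m, a 1.60-fold difference with an adjusted p of 0.000234. Sqstm1, an autophagy receptor, was 1.24-fold higher with an adjusted p of 0.00574, and Plaur, the urokinase receptor, 1.19-fold higher with 0.0347. Ccnd1, the gene for cyclin D1, was lower, as KL held 418 and 427 reads and KLG4m/m 349 and 333, a log2 fold change of -0.25 and an adjusted p of 0.0237, while its strongest peak alone stood at 0.02. Plau, the gene for urokinase, had a log2 fold change of 0.25 and missed the threshold with an adjusted p of 0.0631. DESeq2 called none of the 4. Of the called genes named from these lists, none passed without KLG4m/m replicate 3 or without KLG4m/m replicate 4, where no gene of the table did. Without KL replicate 1, Batf2, Mapk14, Map2k6, Egr4 and Ccnd1 missed the threshold (adjusted p from 0.0599 to 0.264), and without KL replicate 2, Batf2, Mapk9, Mapk14, Map2k6, Egr1, Egr4, Plaur, Ccnd1 and Sqstm1 did (adjusted p from 0.0531 to 0.427).

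**Figure D5:**
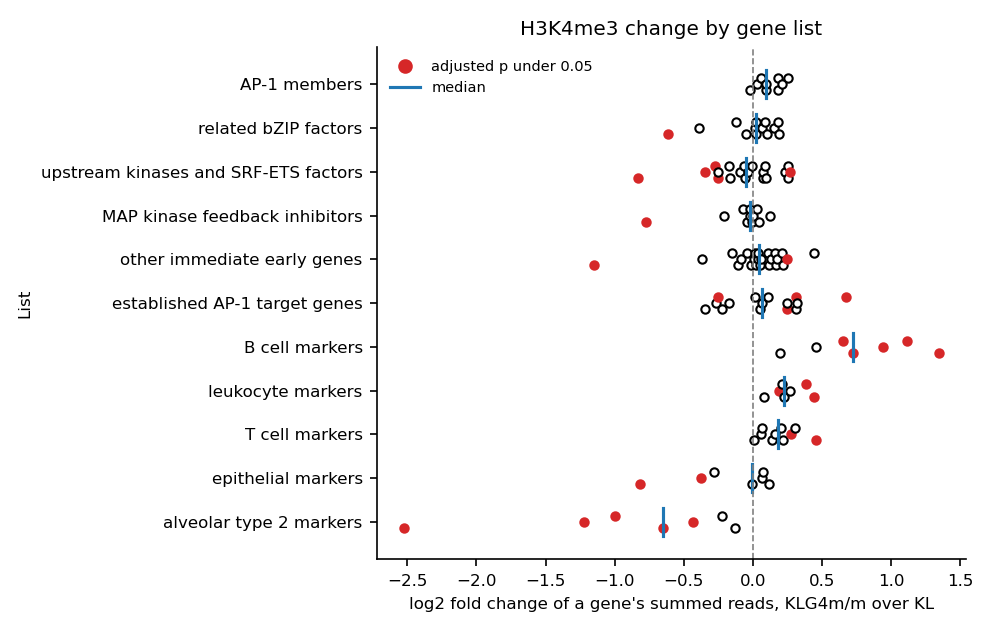
log2 fold change of a gene's summed reads, KLG4m/m over KL (x axis), for the genes of each list (y axis), red where the adjusted p was under 0.05, with a blue line at the median of each list. The AP-1 members sit between -0.02 and 0.25 with none in red, the B cell markers have the highest median at 0.73 and the alveolar type 2 markers the lowest at -0.65.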

How the data were processed

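H3K4me3 CUT&Tag was compared between 2 KL and 2 KLG4m/m libraries. Per the methods and the submitters' processing notes, the authors trimmed reads (Trim Galore 0.6.10), aligned them (BWA 0.7.15), removed reads with a mapping quality under 30 and mitochondrial reads, removed PCR duplicates (Picard 2.17.3) and called peaks (MACS2 2.2.7.1), with HOMER 4.11.1 also named. The deposited table holds raw read counts per peak, which were used as given, and the authors' own fold changes, p-values and CPM, which were not used. Read counts of paralogs and overlapping genes follow the authors' assignment of each peak to 1 gene. The methods name an Ensembl mouse reference for the alignment, by release and without an assembly name. Releases of that age are on GRCm38, yet in the table the gene starts of 9 of 9 AP-1 genes differed from GRCm38.p6, for example 85520664 against 85473890 for Fos, so table coordinates and RefSeq windows are not interchangeable.

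Counts were tested with edgeR 4.0.16 in R 4.3.3 (TMM scaling, quasi-likelihood F-test, no filter, Benjamini-Hochberg adjustment over all 35486 peaks or, on reads summed per gene, 20871 genes). A threshold of 0.05 on the adjusted p was used. Unequal change of a gene's peaks was tested with edgeR's diffSpliceDGE, each peak against the gene as a whole. CPM used TMM-scaled library sizes. Reads in listed peaks numbered 3244495 to 3463731 per library, and intervals at 95% come from the fitted standard errors. Steps were tested on simulated data. Alternatives were DESeq2 1.42.0, limma 3.58.1 on log2(CPM + 1), cyclic loess, total-read scaling, filterByExpr, a 1.5-fold minimum, promoter or strongest peaks only, and leaving out each library, where a lone library was assumed to vary like the other group.

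The AP-1 genes, the pathway lists, the marker lists and the tests were chosen with earlier results of these data known. Named were all members and their peaks, every list gene past the threshold with up to 4 examples per list by smallest adjusted p, Gpx4 and Stk11, peaks within 100 kb of a called member promoter, and the 5 genes most like the member with the smallest adjusted p. Leukocyte and other markers were named where called, and Plau was named after its values were seen. A few items that these rules name are not reported here. The letters TGACG were added to the motif search after the windows had been read.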

Additional observations from a re-analysis of the deposited data

How the results depend on the processing

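The count of 2 higher AP-1 peaks stayed at 2 with total-read scaling, filterByExpr, limma and cyclic loess. It was 0 with DESeq2, 0 with a 1.5-fold minimum and 0 to 1 with 1 library left out, and 0 peaks were lower under any of these. Of summed genes, 0 were higher, but 2 with peaks within 1 kb only, 1 with the strongest peak only and 0 to 1 with 1 library left out (Fosb without KL replicate 1, adjusted p = 0.0485), and 0 were lower under any alternative. Of 11 alternatives on summed reads, Mapk8 passed in 9, Dusp5 in 8, Mapk9 and Mmp9 in 7, Batf2, Mapk14 and Egr4 in 6, Sqstm1 in 5, Egr1 and Ccnd1 in 4, Plaur in 3 and Map2k6 in 1. The 1 unequal peak stayed with filterByExpr and was 0 with each library left out. Without KLG4m/m replicate 3 or 4, 0 of all 35486 peaks and 0 of all 20871 genes passed. Over all peaks, 1099 were higher and 1960 lower, against 33 and 244 with DESeq2, 702 and 1459 without KL replicate 1 and 484 and 998 without KL replicate 2, and over all genes 1122 and 2010, against 119 and 336 with DESeq2. No scaling moved the median log2 fold change of all peaks by over 0.1. With counts under 30 in a library, as at several distal peaks, only large differences were detectable.

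Some directions turned. With libraries left out, log2 fold changes ran from -0.42 to 0.23 for the Fosb peak 11.4 kb upstream, -0.044 to 0.19 for the Fosl2 promoter, -0.089 to 0.17 for the Jund peak, -0.82 to 1.10 for the Fos peak at 23.0 kb and -0.12 to 0.48 for the Batf3 peak 12.4 kb upstream. The Fos peak at 23.0 kb was also at 0.044 with limma and 0.16 with cyclic loess. Of summed genes, cyclic loess gave -0.023 for Fos, -0.013 for Junb and 0.047 for Batf3, and the strongest peak gave -0.20 for Junb, 0.023 for Ccnd1 and 0.11 for Spred2. Peaks within 1 kb gave -0.040 for Spry2. With libraries left out, summed Jund ran from -0.084 to 0.17 and Batf3 from -0.069 to 0.044. The cause was not tested.

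No paired analysis was possible because the KL libraries are numbered 1 and 2 and the KLG4m/m libraries 3 and 4, so the groups of the mark share no number.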
